A study of Mus musculus with 2 samples.

Results

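Chemokine and chemokine receptor genes of mouse dorsal root ganglia were taken by symbol alone, as every row with a chemokine or chemokine receptor name of the CC, CXC, CX3C, XC or atypical receptor families, without regard to expression. There were 61 such genes among the 23238 gene symbols counted, 39 of them ligands and 22 receptors. Chemokines are small secreted proteins that guide leukocytes, and they act through G protein-coupled receptors on the cells they attract. They are grouped by the spacing of their first cysteines into the CC, CXC, CX3C and XC families, and their receptors carry the same prefixes. Atypical receptors bind chemokines without G protein signalling and mostly remove or present them. In sensory ganglia, resident macrophages, vessels, glia and neurons can make chemokines, and Ccl2 and Cx3cl1 are known for neuron to macrophage signalling after nerve injury.

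The samples were dorsal root ganglia, the clusters of sensory nerve cell bodies beside the spinal cord, of mice with the genotype WT in 2 groups; strain, sex and age are not stated in the labels. The AEW group had acetone, ether and water applied on 5 days in a row as a model of dry skin, and the control group had water; ganglia were collected on day 6. Each group had 6 mice, pooled into 1 library, and none of the differences has a replicate check. Effects of AEW and differences between the pools, dissections or library preparations cannot be told apart. No p-value is given. Fewer cells of a type and less RNA per cell also cannot be told apart in RNA from whole tissue. The AEW library had 14376228 counts and the control library 9333882. The labels name the cell type as neurons, but markers of Schwann cells, satellite glia, fibroblasts, muscle, blood and leukocytes were all counted in both libraries.

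Each gene is given by its read count in both libraries, its level in CPM (counts relative to library size, after TMM scaling), and the AEW to control ratio with an exact 95% interval that covers counting error only. Genes with 20 or more counts over both libraries were taken as measured. A call of higher or lower in AEW needed a difference of 1.5-fold or more and an interval without 1. Of the 61 genes, 40 were measured. Among these, 20 were called lower in AEW, where the same rule called 14.9% of all measured genes lower, and 4 were called higher, where it called 17.3% of all measured genes. The median log2 ratio was -0.68 over the 40 members and 0.03 over all 14857 measured genes. Of the 40, 30 had a ratio below 1, compared with 47.8% of all measured genes. By kind, 14 of 27 measured ligands were lower and 2 higher (median -0.79), and 6 of 13 measured receptors were lower and 2 higher (median -0.59).

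**Figure D1:**
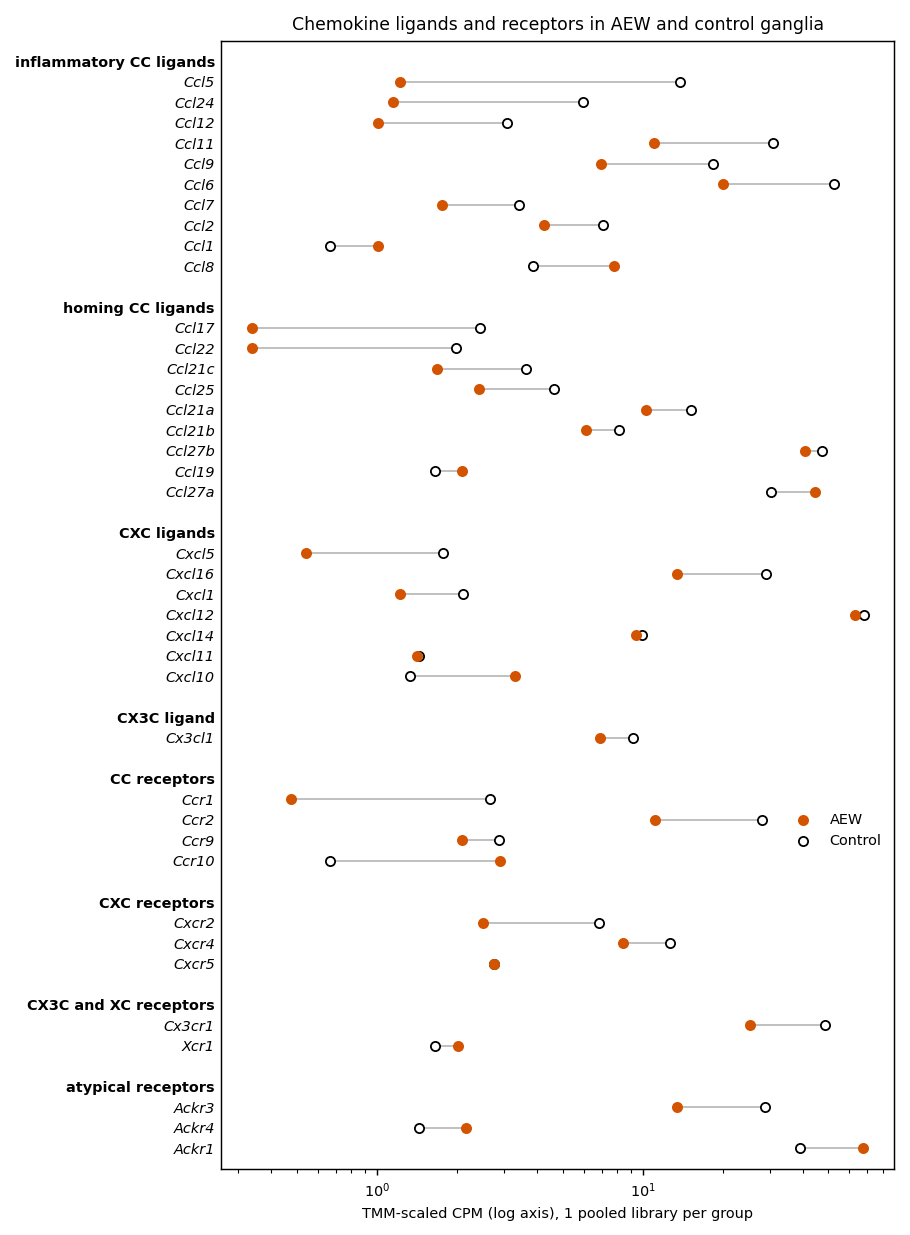
Scaled CPM (log axis) of 39 measured chemokine genes in the AEW library (filled points) and the control library (open points), grouped by role and sorted by ratio within each group. Filled points lie to the left of open points for all 20 genes called lower. Positions compare libraries for each gene and not genes with each other.

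The CC ligands that recruit monocytes, eosinophils and T cells to inflamed tissue were mostly lower in AEW, with 8 of 10 measured members lower, 1 higher and 1 not called (median log2 ratio -1.398). Their summed level was 56.2 CPM in AEW and 141.4 CPM in control. Ccl5, the T cell and monocyte attractant RANTES (ENSMUSG00000035042.2, chromosome 11, 83525778 to 83530518, minus strand, mm10), had 18 counts in AEW against 125 in control, or 1.22 and 13.8 CPM, and was 11.4-fold lower (6.91 to 19.8). This was the lowest ratio of the measured members. Ccl24, an eosinophil attractant (eotaxin-2), had 17 counts in AEW and 54 in control and was 5.20-fold lower (2.97 to 9.57). Ccl11, the first named eotaxin, had 164 counts in AEW and 281 in control and was 2.81-fold lower (2.31 to 3.42). Both eotaxins, ligands of the eosinophil receptor Ccr3, were lower. The intervals of Ccl24 and Ccl11 overlap.

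Ccl6 and Ccl9, mouse ligands of Ccr1 made by myeloid cells, lie side by side near Ccl5 and had nearly the same ratio. Ccl6 had 296 counts in AEW and 476 in control and was 2.63-fold lower (2.27 to 3.05). Ccl9 had 103 counts in AEW and 166 in control and was 2.64-fold lower (2.05 to 3.41). The 3 main ligands of the monocyte receptor Ccr2 were lower by smaller or less certain amounts. Ccl12 had 15 counts in AEW and 28 in control and was 3.06-fold lower (1.58 to 6.16). Ccl7 had 26 counts in AEW and 31 in control and was 1.95-fold lower (1.12 to 3.42). Ccl2, the monocyte attractant that injured sensory neurons are known to make, had 63 counts in AEW and 64 in control and was 1.66-fold lower (1.16 to 2.39). The raw counts of Ccl2 were nearly equal, and the AEW library held 1.54 times as many counts in all. The call of Ccl7 was lost after correction for GC content.

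Ccl8 went the other way. This ligand, which in mice acts through Ccr8 (ENSMUSG00000009185.2, chromosome 11, 82115185 to 82116799, plus strand), had 116 counts in AEW and 35 in control, or 7.83 and 3.87 CPM, a ratio of 2.02 (1.38 to 3.05). It lies within the same 82035571 to 82305690 stretch of chromosome 11 as Ccl2, Ccl7, Ccl11 and Ccl12, of which all 4 were lower. Ccl1, a further Ccr8 ligand in that stretch, had 15 counts in AEW and 6 in control and was not called (ratio 1.53, 0.56 to 4.81). Ccr8 itself had 0 counts in both libraries, which allows up to 0.202 CPM in AEW and 0.331 CPM in control. Ccl3 and Ccl4, macrophage inflammatory proteins, were under the minimum: Ccl3 had 0 counts in AEW and 6 in control, and Ccl4 had 0 in AEW and 8 in control. Against the limit that a count of 0 allows, 3 counts per library, the control counts make Ccl3 at least 3.27-fold and Ccl4 at least 4.37-fold lower. With the counting error of the control library included, the exact intervals reach down to 1.93-fold for Ccl3 and 2.79-fold for Ccl4. Ccl20 and Ccl26 had 0 counts in both libraries.

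Ligands of dendritic cell, lymphocyte and epithelial homing were divided. Of 9 measured, 4 were lower, none higher and 5 not called (median log2 ratio -0.55). The summed level of the group was 109 CPM in AEW and 116.3 CPM in control. Ccl27a and Ccl27b held most of it, with 85.35 CPM in AEW and 77.75 CPM in control. Ccl17 and Ccl22 are the ligands of Ccr4, made chiefly by dendritic cells and macrophages, and they were the lowest of this group. Ccl17 (ENSMUSG00000031780.2, chromosome 8, 94810453 to 94812036, plus strand) had 5 counts in AEW and 22 in control and was 7.20-fold lower (2.66 to 24.4). Ccl22 had 5 counts in AEW and 18 in control and was 5.89-fold lower (2.11 to 20.3). The wide intervals come with these low counts. Ccl25, a thymus and gut ligand of Ccr9, had 36 counts in AEW and 42 in control and was 1.91-fold lower (1.19 to 3.07), and like Ccl7 it was not called after the GC correction. Ccl28, an epithelial ligand, had 4 counts in AEW and 8 in control and was not measured.

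Ccl19 and Ccl21 guide dendritic cells and T cells through Ccr7. Ccl19 had 31 counts in AEW and 15 in control and was not called (ratio 1.26, 0.66 to 2.52). Mouse Ccl21 has several gene copies, and the files list Ccl21a, Ccl21b and Ccl21c. Ccl21a had 153 counts in AEW and 137 in control (ratio 0.68, 0.54 to 0.87). Ccl21b had 91 counts in AEW and 74 in control (ratio 0.75, 0.55 to 1.03). Ccl21c had 25 counts in AEW and 33 in control and was the only copy called, at 2.16-fold lower (1.25 to 3.79). The copies cannot be counted apart with certainty: 71.6% of the 50-base words in Ccl21a transcripts and 100% of those in Ccl21b transcripts occur in other genes of GENCODE M21, which does not hold a Ccl21c symbol. Their summed counts were 269 in AEW and 244 in control, a ratio of 0.67 (0.56 to 0.80), just short of the 1.5-fold threshold.

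Ccl27 is a chemokine of keratinocytes that draws T cells to the skin through Ccr10. Ccl27a had 659 counts in AEW and 276 in control, or 44.5 and 30.5 CPM, a ratio of 1.46 (1.27 to 1.69), under the threshold by the scaling used and called higher under total count scaling, where 20.4% of all genes were called higher. Its near-copy Ccl27b had 606 counts in AEW and 428 in control, a ratio of 0.87 (0.76 to 0.98). As 98.1% of the 50-base words of Ccl27b and 45.0% of those of Ccl27a occur in other genes, the pair is uncertain as separate genes. Together they had 1265 counts in AEW and 704 in control, a ratio of 1.10 (1 to 1.20). Keratinocyte markers moved with the AEW library: all 12 found were called higher, with a summed level of 876.5 CPM in AEW and 40.0 CPM in control. Krt5, a keratin of basal epidermis, had 1336 counts in AEW and 1 in control. The part of these markers in the values of Ccl27a and Ccr10 was not tested.

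Among CXC ligands, Cxcl16, a membrane-bound ligand of Cxcr6 made by macrophages, had 200 counts in AEW and 264 in control and was 2.16-fold lower (1.79 to 2.61). Cxcl16 shares 18.3% of its exon bases with Zmynd15 on the opposite strand, which had 9 counts in AEW and 30 in control. Ligands of the neutrophil receptor Cxcr2 had few counts. Cxcl5 had 8 counts in AEW and 16 in control and was 3.27-fold lower (1.32 to 8.84). Cxcl1 had 18 counts in AEW and 19 in control and was not called (ratio 0.58, 0.29 to 1.17). Cxcl2 had 3 counts in each library, Cxcl3 had 0 in AEW and 1 in control, and Cxcl15 and Cxcl17 had 0 in both.

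Of the ligands of Cxcr3, which interferon induces, 2 were measured, of which 1 was higher and 1 was not called. Cxcl10 (ENSMUSG00000034855.13, chromosome 5, 92346638 to 92348889, minus strand) had 49 counts in AEW and 12 in control, or 3.31 and 1.33 CPM, a ratio of 2.49 (1.31 to 5.15). It was called higher, though not when the interval had to leave out 1.5-fold. Cxcl11 had 21 counts in AEW and 13 in control and was not called (ratio 0.99, 0.47 to 2.15), and shares 41.7% of its exon bases with another gene. Cxcl9 had 10 counts in AEW and 5 in control and was not measured. Cxcl10 shares 5.91% of its exon bases with Art3 on the opposite strand, whose ratio was 0.81 (0.71 to 0.92).

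The ligands Cxcl12, Cxcl14 and Cx3cl1, known from resting tissue, were not called. Cxcl12, the stromal ligand of Cxcr4 and Ackr3, had 929 counts in AEW and 615 in control, or 62.7 and 67.9 CPM, a ratio of 0.92 (0.83 to 1.02). With these counts a 1.5-fold difference lies outside the interval. Cxcl14, a chemokine of skin and other epithelia, had 140 counts in AEW and 90 in control (ratio 0.95, 0.72 to 1.25). Cx3cl1, fractalkine, which neurons carry on their surface, had 102 counts in AEW and 83 in control (ratio 0.75, 0.56 to 1.02). Cxcl13, a B cell attractant, had 8 counts in AEW and 5 in control, and Xcl1, an attractant of dendritic cells made by lymphocytes, had 7 in AEW and 2 in control.

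The start regions of 45 of the 61 genes are in the RefSeq promoter table (GRCm38.p6, 250 bases before to 50 after the start). They were searched on both strands for a kappaB motif of NF-kappaB, an interferon response element (ISRE), a PU.1 motif (GAGGAAGT) and a cyclic AMP response element (TGACGTCA). The kappaB motif was in the windows of 6 of the 45 genes (13.3%), against 1.90% of all 27025 genes with a window, namely Ccl20, Ccl9, Ccr3, Cxcl1, Cxcl2 and Cxcl3. The interferon element was in 3 (6.67% against 3.99%), namely Cxcl10, Cxcl14 and Ccl19. The PU.1 letters were in 1, Cxcr3 (2.22% against 3.69%), and the cyclic AMP element in 0 (against 2.03%). The lower genes Ccl5, Ccl2, Ccl7, Ccl11, Ccl24, Cxcl5, Cxcl16 and Ccl21c and the higher gene Ccr10 had no window and were not searched. Of 12 genes called lower with a window, 1 held kappaB and 0 the interferon element. Of 3 called higher with a window, 0 and 1 did. These numbers are too small to show whether a motif goes with a direction. A match is only a match of letters. The windows of Ccl9, the lower member with a kappaB match, Cxcl1, which was not called and has 2, and Cxcl10, the higher member with an interferon element, are shown 5′ to 3′ on the strand of the gene, with matches in capitals. They are chr11:83578587-83578886 (minus strand), chr5:90890995-90891294 (plus strand) and chr5:92348840-92349139 (minus strand).
Ccl9: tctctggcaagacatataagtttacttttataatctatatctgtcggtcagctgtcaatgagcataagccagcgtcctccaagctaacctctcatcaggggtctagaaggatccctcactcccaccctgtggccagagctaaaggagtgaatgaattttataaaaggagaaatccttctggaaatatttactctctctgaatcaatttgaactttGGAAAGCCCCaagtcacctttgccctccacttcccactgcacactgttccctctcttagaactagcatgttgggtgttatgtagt
Cxcl1: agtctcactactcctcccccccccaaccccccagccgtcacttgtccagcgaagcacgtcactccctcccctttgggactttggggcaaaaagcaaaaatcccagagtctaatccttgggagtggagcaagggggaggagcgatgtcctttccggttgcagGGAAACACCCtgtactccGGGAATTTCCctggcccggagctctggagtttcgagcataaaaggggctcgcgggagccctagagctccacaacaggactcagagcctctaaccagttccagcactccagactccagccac
Cxcl10: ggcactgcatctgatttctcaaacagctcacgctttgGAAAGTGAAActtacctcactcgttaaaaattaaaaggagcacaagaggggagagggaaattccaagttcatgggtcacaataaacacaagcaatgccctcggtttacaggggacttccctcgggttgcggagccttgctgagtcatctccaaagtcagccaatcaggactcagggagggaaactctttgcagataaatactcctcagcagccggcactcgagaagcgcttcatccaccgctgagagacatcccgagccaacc

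Receptors of monocytes, macrophages and neutrophils were lower in AEW. Ccr2, the receptor of inflammatory monocytes, had 165 counts in AEW and 254 in control and was 2.52-fold lower (2.06 to 3.08). Ccr1, a receptor of Ccl5, Ccl6 and Ccl9 on myeloid cells, had 7 counts in AEW and 24 in control and was 5.61-fold lower (2.35 to 15.4). Cx3cr1, the fractalkine receptor of macrophages, had 374 counts in AEW and 440 in control, or 25.2 and 48.6 CPM, and was 1.93-fold lower (1.67 to 2.22). Each of these is a receptor of myeloid cells, and the same held for the main neutrophil receptor. Cxcr2 had 37 counts in AEW and 62 in control and was 2.74-fold lower (1.80 to 4.24), while Cxcr1 had 0 in both libraries. Cxcr4, the Cxcl12 receptor of many leukocytes and progenitors, had 125 counts in AEW and 115 in control and was 1.51-fold lower (1.16 to 1.96), just past the threshold and not called under total count scaling, with thinned reads or after the GC correction.

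Receptors of lymphocytes and dendritic cells had few counts and mostly were not called. Ccr9 had 31 counts in AEW and 26 in control (ratio 0.73, 0.42 to 1.28), and shares 21.4% of its exon bases with other genes. Cxcr5, a B cell receptor, had 41 counts in AEW and 25 in control (ratio 1.002, 0.59 to 1.72), and Bcl9l, whose exons it overlaps on the opposite strand, had 703 and 375 counts. Xcr1, a marker of cross-presenting dendritic cells, had 30 counts in AEW and 15 in control (ratio 1.22, 0.64 to 2.44). These intervals span ratios from below 0.65 to above 1.2, so differences of that size were not detectable at this depth. Receptors below the minimum included Ccr6 with 5 counts in AEW and 14 in control, Cxcr6 with 3 and 10, and Cxcr3 with 6 and 7. Others were Ccr7 with 11 and 5, Ccr3 with 5 and 0, and Ccr4 with 8 and 0. Against the limit that a count of 0 allows, Ccr3 was at least 1.02-fold and Ccr4 at least 1.63-fold higher in AEW. With the counting error of the AEW library included, the exact intervals reach down to ratios of 0.56 for Ccr3 and 1.04 for Ccr4.

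Ccr10, the receptor of the keratinocyte ligand Ccl27 (ENSMUSG00000044052.3, chromosome 11, 101172997 to 101175443, minus strand), had the highest ratio of all measured members. It had 43 counts in AEW and 6 in control, or 2.90 and 0.663 CPM, a ratio of 4.38 (1.86 to 12.6). The gene lies inside the body of Cntnap1 on the opposite strand without sharing exon bases. Cntnap1, a protein of the axon and myelin junction, had 406 counts in AEW and 140 in control, a ratio of 1.77 (1.46 to 2.16). The sources do not say whether reads were counted by strand, so reads of Ccr10 and unspliced reads of Cntnap1 cannot be told apart.

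The atypical receptors moved in opposite directions. Ackr1, which binds many inflammatory chemokines on venules and red cell precursors (ENSMUSG00000037872.5, chromosome 1, 173331886 to 173333750, minus strand), had 997 counts in AEW and 353 in control, or 67.3 and 39.0 CPM, a ratio of 1.73 (1.53 to 1.95). Ackr3, a scavenger of Cxcl12, had 200 counts in AEW and 262 in control and was 2.14-fold lower (1.78 to 2.59). Ackr4, a scavenger of Ccl19, Ccl21 and Ccl25, had 32 counts in AEW and 13 in control and was not called (ratio 1.504, 0.77 to 3.12). Ackr4 shares 8.90% of its exon bases with Acad11, which had 111 counts in AEW and 29 in control, a ratio of 2.34 (1.54 to 3.65). Ackr2, a scavenger of inflammatory CC ligands, had 4 counts in each library.

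Ackr1 weighs on any sum over the receptors. It held 46.6% of all receptor counts in AEW and 21.4% in control. The receptors together had 144.4 CPM in AEW and 182.2 CPM in control, a ratio of 0.79 (0.74 to 0.85), and without Ackr1, a choice made after its values were seen, they had 77.1 CPM in AEW and 143.2 CPM in control, a ratio of 0.54 (0.50 to 0.58). Ackr1 shares 25.7% of its exon bases with Cadm3 on the same strand. Cadm3, an adhesion protein of neurons, had 3637 counts in AEW and 1521 in control, a ratio of 1.46 (1.38 to 1.55). Markers of endothelium, a tissue that carries Ackr1, had 0 of 10 called higher and 2 lower. Over all measured genes, 17.3% were higher and 14.9% lower. The summed level of these markers was 201.1 CPM in AEW and 219.5 CPM in control. The list does not set venules apart from other vessels. Red cell markers had 8 of 9 lower and none higher. The parts of Cadm3 reads, of vessels and of red cells in the Ackr1 value were not tested.

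**Figure D2:**
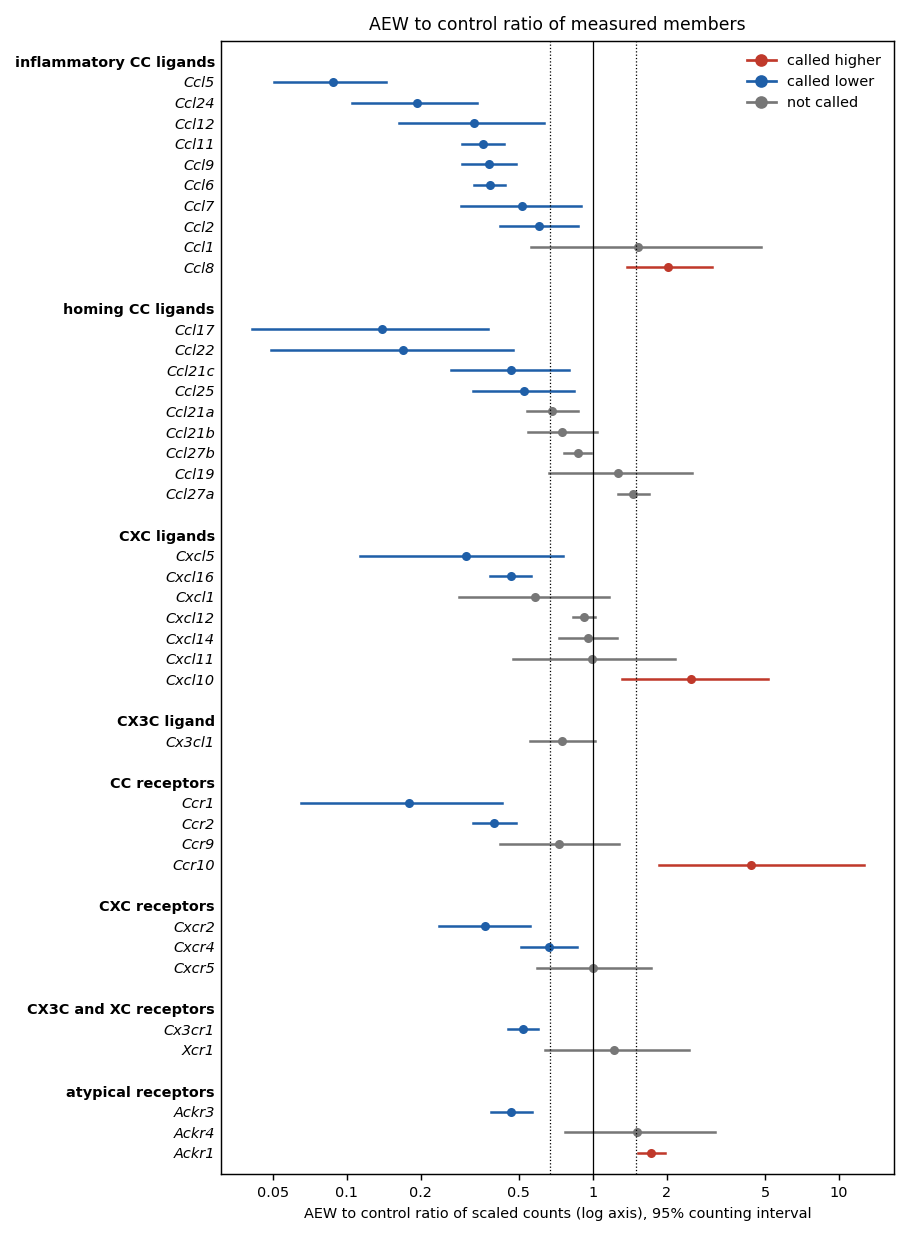
AEW to control ratio (log axis) of 39 measured members with its 95% counting interval; dotted lines mark 1.5-fold in both directions and colours mark the calls. The 20 genes called lower run from Ccl5 at 0.088 to Cxcr4 at 0.66, and the 4 called higher are Ackr1, Ccl8, Cxcl10 and Ccr10.

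Ligands were set beside their receptors in 32 textbook pairs, of which 14 had both genes measured. In 7 of these both were lower: Ccl2, Ccl7 and Ccl12 with Ccr2, Ccl5, Ccl6 and Ccl9 with Ccr1, and Cxcl5 with Cxcr2. Pairs share genes, so these are 3 receptors and not 7 separate cases. In no measured pair of this list were both higher, and in none did the calls oppose each other. The list has no pair with Ackr1, which was higher and binds many inflammatory chemokines. It therefore cannot show whether calls oppose there. Ccr3 and Ccr4 were under the minimum, with 5 and 8 counts in AEW and 0 in control, so their pairs are left out here. Their ligands, Ccl11 and Ccl24 for Ccr3 and Ccl17 and Ccl22 for Ccr4, were lower. In the Cxcl12 pairs the ligand was not called (ratio 0.92) while both receptors were lower, Cxcr4 at 0.66 and Ackr3 at 0.47. The fractalkine pair was alike, with Cx3cl1 not called at 0.75 and Cx3cr1 lower at 0.52. In the Ccl27a and Ccr10 pair the ratios were 1.46 and 4.38, of which the receptor was called.

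Members also lie in gene clusters. The chromosome 11 stretch from 83525778 to 83664683 holds Ccl5, Ccl9, Ccl6, Ccl3 and Ccl4, and all 3 measured genes were lower. The chromosome 9 stretch from 123678439 to 124147699 holds 7 receptors, of which 5 were measured, 2 lower and 3 not called. On chromosome 8, Ccl22 and Ccl17 were lower while Cx3cl1 between them was not called (ratios 0.17, 0.14 and 0.75). The 5 members in the chromosome 4 stretch from 41769467 to 42773993 (Ccl27a, Ccl21b, Ccl27b, Ccl19 and Ccl21a) were all measured, and none was called. Of the 40 measured members, 15 overlapped exons of another gene, shared at least 10% of their 50-base words with one, or had no entry in the annotation. Among the 25 others, 16 were lower and 2 higher, Ccl8 and Ccr10, with a median log2 ratio of -1.10. Of all measured genes, 14.9% were lower and 17.3% higher. Ccr10 is kept here because it shares no exon bases, though it lies inside the body of Cntnap1.

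Macrophage, monocyte, neutrophil and mast cell markers were mostly lower in the AEW library beside the chemokine genes. Dendritic cell, T and NK cell and B cell markers were divided or had few counts. Of 20 macrophage markers, 18 were lower and none higher (median log2 ratio -1.41), with a summed level of 369.8 CPM in AEW and 973.5 CPM in control. Ms4a7, a macrophage membrane protein, had 11 counts in AEW and 66 in control, and Ctss, a lysosomal protease, had 469 and 1177. Monocyte markers were lower in 6 of 7 (360.1 CPM in AEW and 946.8 CPM in control). Most of that sum came from S100a4 (208.7 and 624.2 CPM) and Fn1 (87.85 and 166.8 CPM). Which cells carried these 2 genes was not tested. Neutrophil markers were lower in 8 of 9 measured (518.6 CPM in AEW and 1592.5 CPM in control), and mast cell markers in 6 of 7 measured (68.3 CPM in AEW and 160.4 CPM in control). Of 6 measured dendritic cell markers, 3 were lower and 1 higher (20.04 CPM in AEW and 20.1 CPM in control). The higher one, Flt3, held 10.9 CPM of that sum in AEW and 3.87 CPM in control. Of the T and NK cell markers, 4 were measured, 2 were lower and 2 not called (6.82 CPM in AEW and 12.2 CPM in control). Under the minimum, Cd4 had 17 counts in AEW and 2 in control, and Klrb1c had 3 in AEW and 8 in control. Of the B cell markers 3 were measured and 1 was lower (3.98 CPM in AEW and 9.61 CPM in control). Of all these leukocyte markers Pax5, a B cell factor, had 0 counts in both libraries. Beside the 14.9% of all genes called lower, 6 of 10 fibroblast, 3 of 4 measured lymphatic endothelial and 6 of 7 skeletal muscle markers were lower. Of mural markers 3 of 9 were lower, of Schwann cell markers 3 of 9, and of satellite glia markers 1 of 7 measured, the last close to that share. None of these lists had a higher gene. Of 5 measured sebaceous gland markers, 2 were higher and none lower. The part of all these markers in the chemokine values was not tested.

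The direction of many members depended on which cells set the scale. Of 20 pan-neuronal markers, 12 were called higher and 0 lower (15682.2 CPM in AEW and 10029.5 CPM in control). With the libraries scaled on the median of that list, which lowers every log2 ratio by 0.77, 29 members were lower where 58.1% of all genes were, and Ccr10 alone was higher where 3.69% of all genes were. With the libraries scaled on the median of the macrophage list, which raises every log2 ratio by 1.41, 3 members were lower where 0.545% of all genes were, namely Ccl5, Ccl17 and Ccl24, and 20 were higher where 87.9% of all genes were. On that scale Ccl6, Ccl9, Ccl11, Ccr2 and Cxcr2 had log2 ratios between -0.08 and 0.08. Cx3cr1 stood at 0.46 and Ccl2 at 0.67.

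Stricter or other rules changed how many members were called. Total count scaling called 19 lower (12.3% of all genes) and 5 higher (20.4%). A 2-fold threshold called 15 lower (6.85%) and 3 higher (8.23%), and an interval that leaves out 1.5-fold called 14 lower (7.21%) and 2 higher, Ackr1 and Ccr10 (8.93%). When a member also had to lie over 3 scaled median absolute deviations from genes of like expression, 1 was lower, Ccl5 (0.66%), and 0 higher (2.17%).

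**Figure D3:**
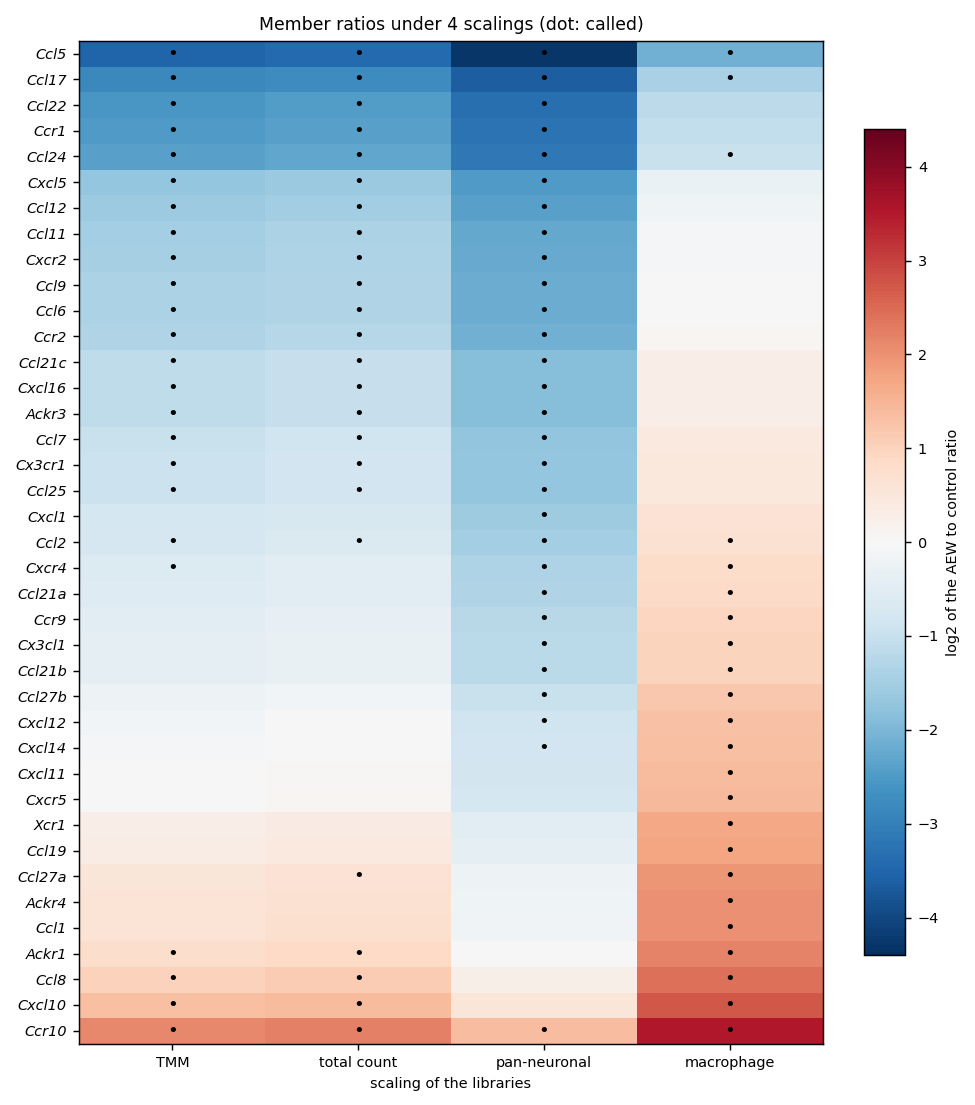
Log2 of the AEW to control ratio of 39 measured members (rows, sorted by the TMM value) under 4 scalings of the libraries, with a dot where a gene was called. TMM and total count scaling look alike; under macrophage scaling only Ccl5, Ccl17 and Ccl24 remained called lower.

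Other genes of chemokine and chemoattractant signalling were taken from lists by role. Beside the counts of each of these lists, 14.9% of all measured genes were called lower and 17.3% higher. Of 9 measured further ligands and binding partners, 3 were lower and none higher (median log2 ratio -0.28). Pf4, the platelet chemokine that is Cxcl4 in the systematic naming, had 333 counts in AEW and 501 in control and was 2.46-fold lower (2.14 to 2.84), and Rarres2, which encodes chemerin, was 3.07-fold lower (2.83 to 3.33). Mif, a cytokine that also binds Cxcr2 and Cxcr4, had a ratio of 1.47 (1.36 to 1.59), and Sdc1, a proteoglycan, of 1.45 (1.22 to 1.73), neither of which was called.

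Of 11 measured receptors of other attractants, 5 were lower and 1 higher (median -0.67). Fpr2, a formyl peptide receptor of phagocytes, had 53 counts in AEW and 139 in control and was 4.29-fold lower (3.11 to 6.01), and C3ar1, a complement receptor, was 2.55-fold lower (2.03 to 3.21). Gpr35, a receptor also found in sensory neurons, had 262 counts in AEW and 63 in control, a ratio of 2.54 (1.92 to 3.40). S1pr1 was not called (ratio 1.15, 0.96 to 1.38).

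Of 31 genes of the signalling steps below the receptors, 11 were lower, 2 higher and 18 not called. Over all measured genes, 14.9% were lower and 17.3% higher. The median log2 ratio was -0.26 for these 31 genes and 0.03 for all genes. Vav1, an exchange factor of leukocytes, was 2.82-fold lower (1.89 to 4.28), while Prkcd, a protein kinase C, and Plcb3, a phospholipase of sensory neurons, had ratios of 1.76 (1.61 to 1.92) and 1.52 (1.31 to 1.75). Of 9 measured genes of receptor desensitization, 3 were lower and 1 higher (median -0.04). The higher one was the receptor kinase Adrbk1, with a ratio of 1.99 (1.81 to 2.18). Grk5 was 1.97-fold lower (1.52 to 2.55) and Rgs18 2.34-fold lower (1.30 to 4.30), and Arrb1, an arrestin, had a ratio of 1.30 (1.21 to 1.399).

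Of 19 measured inducers of chemokines (cytokines, their receptors and NF-kappaB and interferon factors), 7 were lower and none higher (median -0.39), and Ifng and Il17a had 0 counts in both libraries. Il33 was 2.59-fold lower (2.20 to 3.06) and Irf7 3.06-fold lower (2.05 to 4.64), while Nfkbia, the inhibitor that NF-kappaB induces, had a ratio of 0.89 (0.84 to 0.95) and Cebpb of 1.36 (0.999 to 1.88). Of 8 proteases that cut chemokines, 5 were lower and none higher (median -0.79). Mmp12, a macrophage protease, had 2 counts in AEW and 117 in control, a ratio of 0.010 (0.0013 to 0.039), and Mmp2 was 1.95-fold lower (1.78 to 2.13). Adam10, which sheds Cx3cl1 and Cxcl16 from membranes, was 1.55-fold lower (1.43 to 1.68), and Adam17 had a ratio of 0.72 (0.64 to 0.80).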

How the data were processed

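Each deposited file lists 23282 rows of gene symbols with unnormalized read counts, whole numbers in every row. Per the labels' protocols, Quant-Seq libraries were made from 500 ng of total RNA. Bowtie2, bedtools and mm10 are named in the submitters' processing notes; versions, annotation, strand use and the treatment of multiply matched reads are not stated there or in the labels. Libraries were scaled with TMM in edgeR 4.0.16 (factors 1.03 for AEW and 0.970 for control). Ratio intervals are exact (Clopper-Pearson, 95%) and, without molecular identifiers, cover counting error only. Calls need a summed count of 20, a 1.5-fold ratio and an interval without 1. Calling was checked on simulated counts with counting error only. That check holds no spread between pools or dissections and cannot speak to it. The 61 symbols fill 65 rows; 4 further rows of Ccl19, Ccl21a and Ccl21b are at 0 and were added in, and other repeated symbols were left out. Positions and transcript sequences are from GENCODE M21 (mm10). The measured members are named, except 1 that is not reported here, as is 1 gene of another list, and of each other list up to 4, those with the 2 highest lower and 2 lowest upper bounds of the ratio; others were chosen after their values were seen. The members and lists were chosen with earlier results of these data known. Alternatives were DESeq2 1.42.0 size factors and 11 other settings, with 2 added later.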

Additional observations from a re-analysis of the deposited data

How the results depend on the processing

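Of the members, 20 were called lower and 4 higher. The same 20 and 4 were called with DESeq2 size factors, upper quartile scaling, and TMM without keratin, haemoglobin and ribosomal RNA rows. Total count scaling gave 19 lower and 5 higher. Counts moved by over 1.5 times under these settings: a summed count of at least 100 left 19 members with 10 lower and 2 higher (13.6% and 17.3% of all genes); an interval without 1.5-fold gave 2 higher; pan-neuronal scaling gave 1 higher; macrophage scaling gave 3 lower and 20 higher. Asking also for over 3 scaled median absolute deviations from genes of like expression left 1 lower, Ccl5, and 0 higher. With no minimum count, 24 were lower and 5 higher (14.1% and 15.1% of all genes). The GC correction, also added after seeing the data, gave 18 lower, 17 of them among the 20, and 4 higher (14.4% and 16.5% of all genes). Without members that share sequence or exons with another gene, an alternative chosen after seeing the data, 2 were higher. The main rule called 17.3% of all measured genes higher. Ccl5 was called lower in all 13 settings. Macrophage scaling, which raises each log2 ratio by 1.41, turned these signs among others: Ackr3 0.31, Ccl2 0.67, Ccl21a 0.86, Ccl21b 0.996, Ccl21c 0.30, Ccl25 0.48, Ccl27b 1.20, Ccl6 0.012, Ccl7 0.44, Ccl9 0.0091, Ccr2 0.075, Ccr9 0.95, Cx3cl1 0.99, Cx3cr1 0.46, Cxcl1 0.62, Cxcl11 1.39, Cxcl12 1.29, Cxcl14 1.34, Cxcl16 0.30 and Cxcr4 0.82. Depth limits the members under about 50 summed counts, whose intervals span several-fold. No paired analysis was possible because each group has 1 library.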

Other observations

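Of 6 measured genes listed for dendritic cells, 1 was higher in AEW, 3 lower and 2 not called. Over all measured genes, 17.3% were higher and 14.9% lower, so 1 of 6 higher is close to the general share. These genes were picked out after the values were known. Flt3 alone was higher, and 12 of 20 pan-neuronal markers were higher too. Which cells carried Flt3 was not tested. Flt3, a growth factor receptor of dendritic cells and progenitors, had 161 counts in AEW and 35 in control, a ratio of 2.81 (1.94 to 4.18), whereas Clec9a, a receptor of cross-presenting dendritic cells, had 10 counts in AEW and 28 in control and was 4.58-fold lower (2.16 to 10.6). Siglech, a marker of plasmacytoid dendritic cells, had 21 counts in AEW and 41 in control and was 3.20-fold lower (1.85 to 5.69). Itgax was also lower, with 9 counts in AEW and 18 in control (ratio 0.31, 0.12 to 0.72). Zbtb46 and Batf3 were not called. Xcr1, which marks the same cells as Clec9a, was not called at 30 counts in AEW and 15 in control.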
